A study of Mus musculus with 6 samples.

Results

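The genes described here encode secreted and cell-surface proteases and their inhibitors: the ADAM, ADAMTS and MMP metalloproteases, the ADAMTS-like proteins, the TIMP inhibitors, the serpins, and Plat, Plau and Plaur of the plasminogen activation system. They were taken by gene symbol from the platform annotation, which gave 137 of the 19057 named genes, read by 240 of the 45281 probes on the array. The 2 groups of mouse tissue were collected by laser microdissection at embryonic day 9.5, by their labels, from embryos of a mixed FVB and 129 background. The KO group was surface ectoderm labelled CBP/p300-/- (3 arrays), which lacks the lysine acetyltransferases CBP and p300 by its label, and the WT group was lens placode of wild-type embryos (3 arrays). The labels describe RNA of 3 embryos pooled within a genotype and amplified 3 times, which makes the arrays of a genotype technical replicates of 1 pool, whereas the study's text calls its KO and WT samples biological replicates. The labels are followed here, so each p-value is read as measuring the spread between amplifications, and this conflict bears on every SD and p-value. Genotype and tissue label change together, and their effects on a gene cannot be told apart. In the study's array methods both genotypes carry floxed alleles of the CBP and p300 genes, and the KO embryos also carry Pax6-Cre, a transgene driven by Pax6 sequences in the presumptive lens and cornea, which the WT embryos lack. Those methods give a later embryonic day than the labels, so whether they describe these embryos was not settled.

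Metalloproteases of these families need a zinc ion in the active site. The MMPs cut collagens and other matrix proteins, the ADAMTS enzymes cut proteoglycans and procollagens, and the ADAMs, which are anchored in the membrane, release growth factors and receptors from the cell surface. TIMPs block metalloproteases. Plat (tissue plasminogen activator) and Plau (urokinase) turn plasminogen into plasmin, and many serpins trap serine proteases such as these. In epithelia that bend or fold, as the lens placode does when it forms the lens pit, such enzymes act on the matrix that lies beneath the cells.

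The transcript of Plat was lower in KO, and it was the only protease or inhibitor probe that passed the test, a call kept in 1 of 15 alternative settings. Adamts1 and Adamts18 also read lower in KO, and Adam23 and Mmp11 higher, without passing. Few of the genes were measurable in this tissue: 23 of the 240 probes, for 20 genes, were above background on all 3 arrays of at least 1 genotype and were tested (9.58%). Of these, 1 was called lower and 0 higher in KO (limma, adjusted p under 0.05 and a log2 change of at least 1 in size), where 0.843% of the 12697 probes tested across the array were called, 0.425% lower (54 probes) and 0.417% higher (53 probes). With median scaling in place of quantile normalization that split was 29 lower and 63 higher. The count of 0 higher stood beside 3 member probes higher and 3 lower at an unadjusted p under 0.05, a level that 15.2% of all tested probes reached (8.58% higher and 6.61% lower). The median log2 fold change, KO minus WT, was 0.10 over the 23 probes and 0.05 over all probes tested. Such medians are taken over probes that passed the filter on dim signal and are given as a description.

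Across the arrays, between 12.5% and 20% of the protease and inhibitor probes and between 27% and 38% of all probes were above background (detection p under 0.01). The raw median intensity was 90.9 to 95.5 on the KO arrays, 85.6 and 87 on WT replicates 2 and 3, and 141 on WT replicate 1. Over the tested probes, pairs of KO arrays correlated at 0.846 to 0.856 and pairs of WT arrays at 0.772 to 0.79, against 0.733 to 0.776 for a KO with a WT array. The targeted genes gave no uniform reading. Crebbp averaged 7.46 ± 0.90 in KO and 7.27 ± 0.30 in WT on its brightest probe (log2 intensity, SD, n = 3 each). One tested Ep300 probe read 5.71, 6.49 and 9.94 on KO replicates 1 to 3, against 6.94, 7.84 and 6.81 on WT replicates 1 to 3, so that KO replicates 1 and 2 lay below all WT arrays and KO replicate 3 above them. The other tested Ep300 probe averaged 7.76 in KO and 5.17 in WT, where no array was above background, a signal at least 3.03-fold higher in KO (limma adjusted p = 0.0738). Among the probes not tested, differences (KO minus WT) were -0.74 and 0.09 for Ep300 and -0.34 for Crebbp. The place of these probes relative to the deleted part was not examined. All lens placode markers and all surface ectoderm markers with a probe (13 genes each) were above background on at least 1 array. The summed level of the placode list was lower in KO (12210 to 14720) than in WT (22390 to 26140, linear normalized intensity), with 11 of its 12 tested genes negative. Of its 25 tested probes, 3 were called, all lower in KO. The summed level of the surface ectoderm list was 19630 to 21280 in KO and 26160 to 31270 in WT. In that list 9 of 10 tested genes were negative and 0 of 15 tested probes were called. Of 11 macrophage markers with a probe, 0 were tested and 8 were above background on no array, with a summed level of 587.8 to 755.1 in KO and 649.1 to 1245 in WT.

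Of the 137 genes, 89 were not above background on any array (termed silent), and 28 more were above it on some arrays only. The silent genes were spread unevenly over the families. Clade A of the serpins, which in the adult are largely plasma proteins made by the liver (alpha-1 antitrypsin and its relatives), had 20 of 21 genes above background on no array. Clade B, the intracellular serpins, had 20 of 26 such genes and 3 tested. Among 32 ADAM genes, 24 were silent, including Adam2 and Adam3, which are known for their role in sperm. Among 21 MMP genes, 9 were silent, among them Mmp7 (matrilysin), Mmp8 (neutrophil collagenase) and Mmp12 (macrophage elastase). A probe not above background sets only an upper bound on its transcript.

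**Figure D1:**
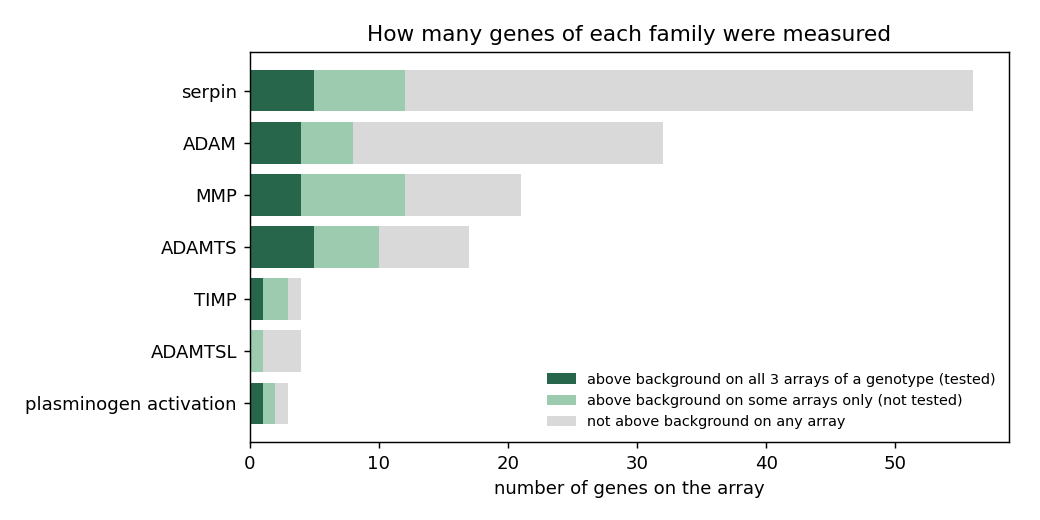
Number of genes (x axis) in each protease or inhibitor family (rows), split by whether any probe of the gene was above background on all 3 arrays of a genotype, on some arrays only, or on none. Of 56 serpin genes 5 were tested and 44 were silent, whereas 5 of 17 ADAMTS genes were tested.

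Promoter sequences of 2 members whose normalized KO and WT arrays did not overlap are shown to set these genes in their genomic place. RefSeq promoter windows, running from 250 bases before to 50 bases after a transcription start (GRCm38.p6), were found for 18 of the 20 tested genes. Adamts1 (chr16:85803064-85803363, minus strand) was the metalloprotease with the largest decrease, and Mmp11 (chr10:75932453-75932752, minus strand) was measurable in KO alone. Capitals mark the GC box GGGCGG, searched on both strands.
Adamts1: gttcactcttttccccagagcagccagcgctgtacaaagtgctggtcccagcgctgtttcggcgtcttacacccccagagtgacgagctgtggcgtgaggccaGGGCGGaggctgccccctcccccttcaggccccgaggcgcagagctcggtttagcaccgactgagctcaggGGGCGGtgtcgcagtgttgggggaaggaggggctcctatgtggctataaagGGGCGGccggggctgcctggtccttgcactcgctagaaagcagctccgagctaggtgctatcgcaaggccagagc
Mmp11: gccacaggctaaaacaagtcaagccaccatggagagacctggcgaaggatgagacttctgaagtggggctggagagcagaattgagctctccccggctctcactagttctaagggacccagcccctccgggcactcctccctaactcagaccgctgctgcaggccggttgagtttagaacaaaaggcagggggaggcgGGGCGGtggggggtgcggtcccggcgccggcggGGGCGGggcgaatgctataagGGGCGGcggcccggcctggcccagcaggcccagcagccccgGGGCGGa
The Adamts1 window held 3 GC boxes and the Mmp11 window 4. Over the 19 windows of the tested genes, 13 held a GC box, against 35.7% of all 32851 promoter windows. The cAMP response element TGACGTCA, a site of CREB, to which CBP binds, was in 0 of the 19 windows and in 1.79% of all windows. The AP-1 site TGANTCA, a motif long known from collagenase promoters, was in 1 of the 19, that of Mmp1a, and in 7.81% of all windows. A match to a motif describes the letters of the window only. The 19 windows belong to genes that passed the filter on dim signal, and the 32851 windows were not filtered, so the shares are not of like sets.

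Plasminogen activation was the part of the set with a call. Plat read 5.66, 5.08 and 6.07 on KO replicates 1 to 3, against 8.06, 9.36 and 9.08 on WT replicates 1 to 3 (log2 intensity). All KO arrays lay below all WT arrays, and the gap between the groups was wider than the range within either. The means were 5.60 ± 0.50 in KO and 8.83 ± 0.68 in WT (SD, n = 3 each), a difference of -3.23 ± 0.46 (SE, limma adjusted p = 0.0480). Plat was above background on 1 of 3 KO arrays, so its mean in KO includes background readings and the size is a fitted value. In bulk tissue, fewer cells that express a gene and less RNA per cell cannot be told apart.

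The Plat result rested on 1 probe and on the processing used. Of the other Plat probes, 1 was silent and 1 was above background on a single KO array (replicate 2), at 6.17. The adjusted p of the tested probe was under 0.05 in 1 of 15 alternative settings (0.0422, with variances modelled on intensity) and between 0.0526 and 0.207 in the other 14, including every setting with 1 array left out (0.0669 to 0.156). Its log2 fold change stayed negative in all 15, at -3.68 to -2.15, the smallest being the value with no background correction.

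**Figure D2:**
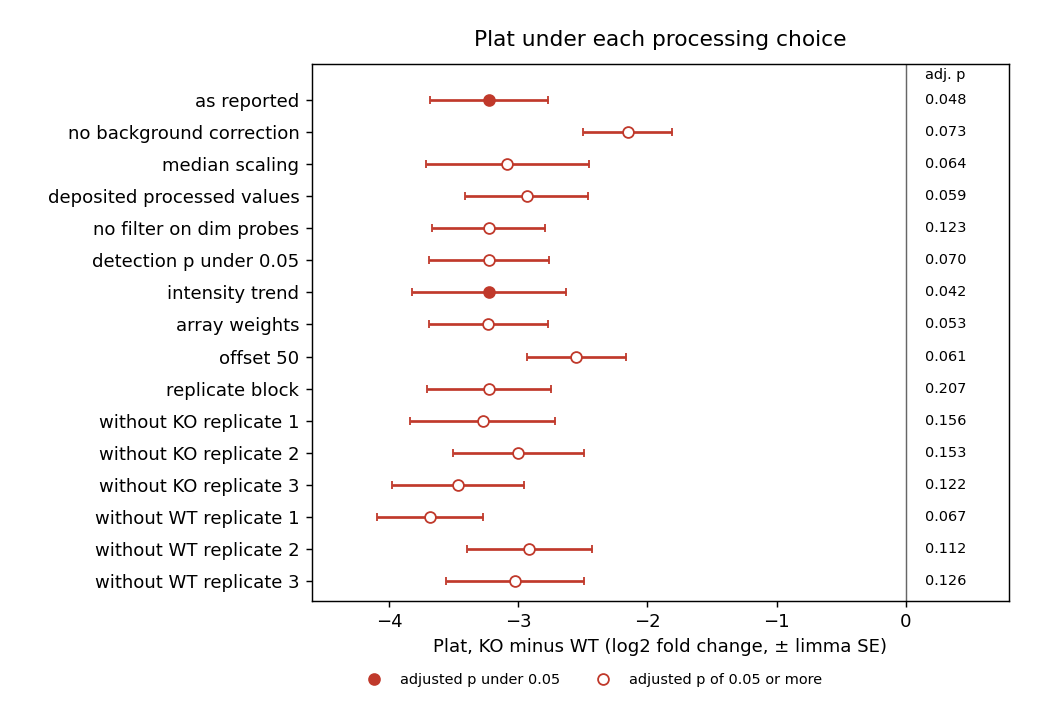
Log2 fold change of Plat, KO minus WT, with limma's SE (x axis), as reported and under each of 15 alternative settings (rows), with the adjusted p at the right. Filled points mark an adjusted p under 0.05. Every point lies between -3.68 and -2.15, and all but the first and the intensity trend are open.

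Plau, the urokinase type activator, had 1 probe above background in WT alone: it read 4.82 to 5.0 on the KO arrays, none of them above background, and 4.71, 7.24 and 8.56 on WT replicates 1 to 3. WT replicate 1 sat with the KO arrays, and the probe was not tested. Plaur, the cell-surface receptor that holds urokinase, was silent on all arrays, as was Plg, which encodes plasminogen itself. Anxa2 (annexin A2), a surface protein that binds plasminogen and its tissue activator, read 9.30, 10.36 and 10.18 on the KO arrays, against 6.86, 5.64 and 4.69 on the WT arrays. Its groups did not overlap, and its difference of 4.22 ± 0.62 (SE) had an adjusted p of 0.0502, just outside the call, with 1 WT array above background. S100a10, the partner of annexin A2, averaged 9.48 ± 0.53 in KO and 8.28 ± 2.64 in WT, with WT replicate 1 far below the others. Lrp1, an endocytic receptor that clears plasminogen activators, averaged 8.77 ± 0.26 in KO and 9.82 ± 0.60 in WT, a difference of -1.05 ± 0.38 (SE, limma adjusted p = 0.277) with groups that did not overlap.

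The ADAMTS enzymes gave 3 negative and 2 positive differences among 5 tested genes, with 0 called. Adamts1, which cuts aggrecan and versican, read 6.62, 5.45 and 6.12 on KO replicates 1 to 3, against 7.31, 8.52 and 8.71 on WT replicates 1 to 3. Its KO arrays lay below its WT arrays, with a difference of -2.11 ± 0.50 (SE, limma adjusted p = 0.128), and 2 KO arrays were above background. Its other probes, not tested, read -1.39 and -0.65, and each had overlapping groups.

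Adamts18, an ADAMTS family metalloprotease, had overlapping groups. Its tested probe read 4.72, 4.71 and 8.01 on KO replicates 1 to 3 and 8.92, 6.66 and 6.10 on WT replicates 1 to 3. A single KO array (replicate 3) was above background and lay above WT replicates 2 and 3. The difference was -1.41 ± 1.15 (SE, limma adjusted p = 0.648), or -2.45 without KO replicate 3 and -0.58 without WT replicate 1. Of the 4 other Adamts18 probes, 1 was silent and 3 were above background on 1 array each: WT replicate 1, WT replicate 3 and KO replicate 3. The tested probe therefore carried a signal on all WT arrays that its other probes did not share.

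**Figure D3:**
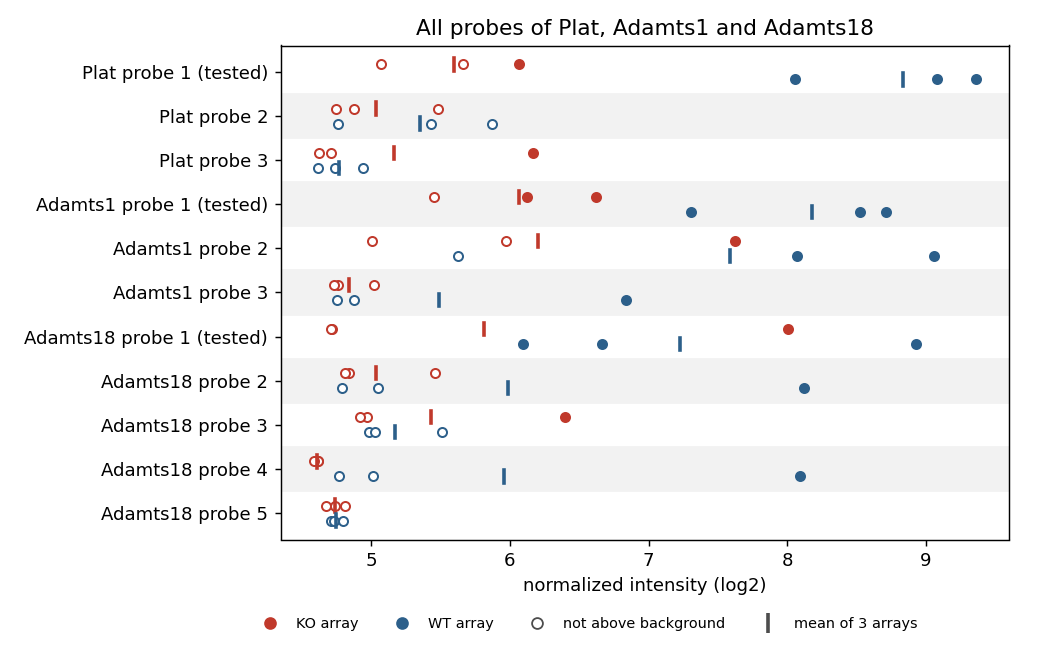
Normalized log2 intensity (x axis) of every probe of Plat, Adamts1 and Adamts18 (rows, ordered by mean intensity within a gene) on each KO and WT array, with group means as bars. Open points were not above background. The tested Plat probe separates KO (5.08 to 6.07) from WT (8.06 to 9.36), while the other Plat probes and most Adamts18 probes lie near 5 on most arrays.

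The other 3 tested ADAMTS genes gave differences of both signs. Adamts17, a family member linked in humans to an inherited disease of the eye and skeleton, read 8.36, 8.90 and 9.0 in KO, against 6.57, 8.34 and 8.16 in WT. All KO arrays lay above all WT arrays, by 0.02 at the closest, and the difference was 1.06 ± 0.53 (SE, limma adjusted p = 0.426), or 0.50 without WT replicate 1. Adamts9, which cuts versican, averaged 7.61 ± 0.48 in KO and 8.26 ± 1.02 in WT (SD, n = 3 each), a difference of -0.65 ± 0.57 (SE, limma adjusted p = 0.682) that was -1.14 without WT replicate 3 and -0.17 without WT replicate 2. Adamts4, an aggrecanase, averaged 8.76 ± 1.35 in KO and 8.66 ± 0.53 in WT. Both had overlapping groups. A second Adamts9 probe, not tested, had a difference of 0.58, with 2 KO arrays and 1 WT array above background. Of 4 ADAMTS-like genes, 3 were silent, and Adamtsl4 was above background on 1 KO array.

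The ADAM genes had 0 calls over 5 tested probes. Adam23, a neural ADAM that lacks protease activity and binds partners through its disintegrin domain, had the largest increase among all tested members. It read 6.54, 8.85 and 8.64 on KO replicates 1 to 3 and 6.01, 4.76 and 6.82 on WT replicates 1 to 3. KO replicate 1 fell inside the range of the WT arrays, and 1 WT array was above background. The difference was 2.15 ± 0.80 (SE, limma adjusted p = 0.281), and a second Adam23 probe was silent.

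The sheddases that act on many surface proteins were bright in both pools. Adam17 (TACE, which releases TNF and EGF receptor ligands) averaged 10.94 ± 0.26 in KO and 11.24 ± 0.70 in WT on the probe measured on all 6 arrays. Adam10, which cuts Notch and cadherins, averaged 8.96 ± 0.64 in KO and 9.10 ± 0.18 in WT. The groups overlapped for both, and the differences were -0.31 ± 0.42 and -0.13 ± 0.39 (SE). A second Adam17 probe disagreed, at 7.50 to 7.89 in KO and 4.72, 7.80 and 4.95 in WT (1.83 ± 0.84, adjusted p = 0.378), with 1 WT array above background. Adam15, which is found in adherens junctions, averaged 7.99 ± 0.34 in KO and 7.56 ± 0.23 in WT. Its KO arrays all lay above its WT arrays, but by 0.02 at the closest. Of the other Adam15 probes, none tested, 2 were silent. The rest had differences of 0.99 and 1.06, above background on 1 and 2 KO arrays and on no WT array. Adam22, a close relative of Adam23, had 2 probes above background on 2 KO and 2 WT arrays each and was not tested.

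**Figure D4:**
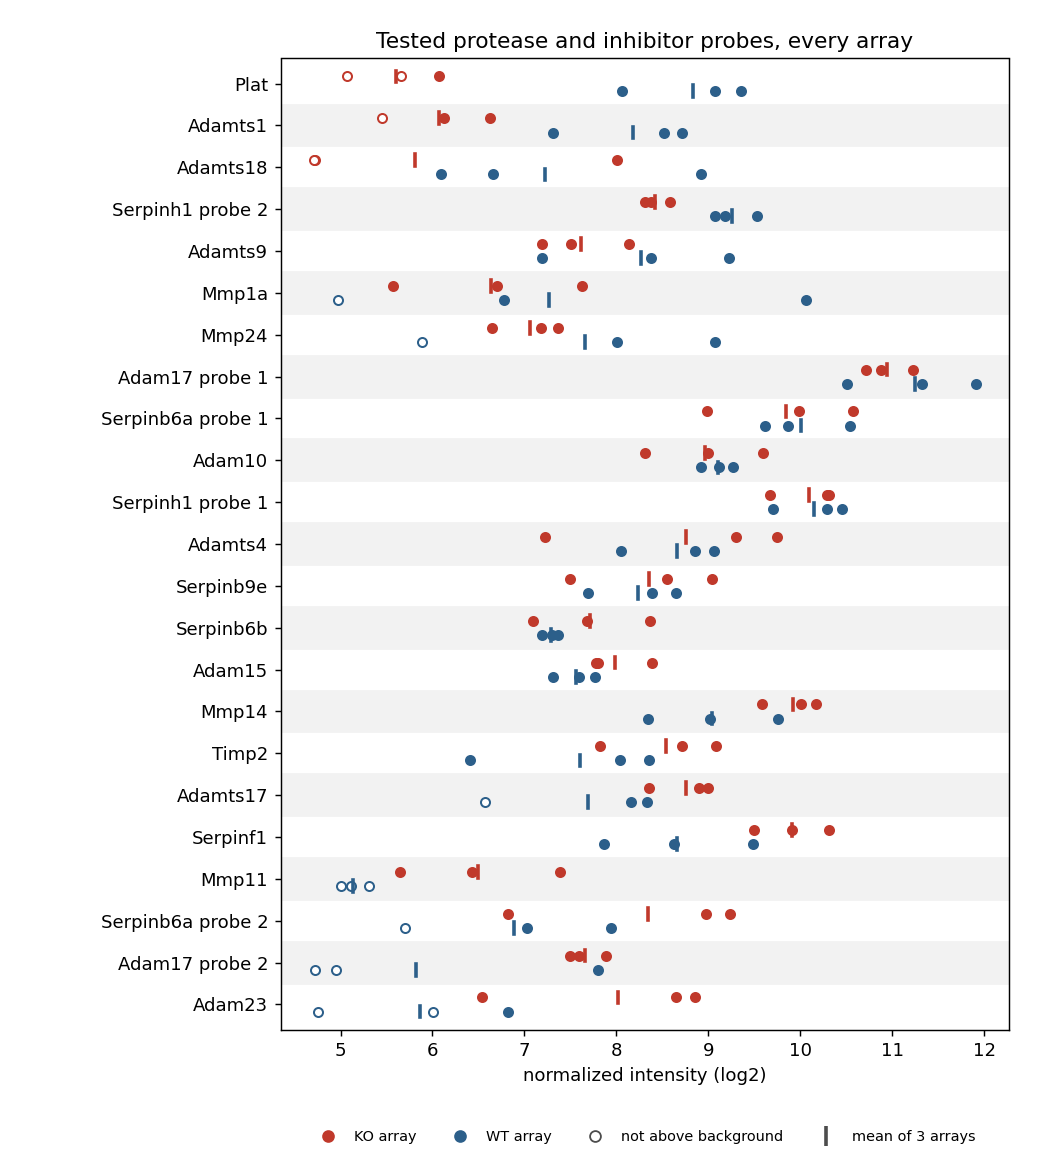
Normalized log2 intensity (x axis) of the 23 tested probes on every array (rows, ordered from the most negative to the most positive KO minus WT), with KO points above WT points and group means as bars. Open points were not above background. Plat, Adamts1 and probe 2 of Serpinh1 separate with KO lower, and Adam15, Adamts17, Serpinf1 and Mmp11 with KO higher. Probes of 1 gene are numbered by mean intensity.

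Among the MMPs, 4 of 21 genes were tested, with 0 called. Mmp11 (stromelysin 3) read 7.39, 6.43 and 5.65 on the KO arrays, all above background, and 5.31, 5.01 and 5.11 on the WT arrays, none above background. The normalized groups did not overlap, but in scanner signal WT replicate 1 (159.11) lay above KO replicate 3 (126.83). After normalization the KO signal exceeded the WT signal at least 1.25-fold (limma adjusted p = 0.257). This bound sets the KO mean against the mean, over the WT arrays, of the dimmest signal above background, and it rested on KO replicate 1: the other KO arrays averaged 6.04, under the 6.17 of that floor, so they give no bound. Without KO replicate 1 the fitted difference was 0.87, against 1.35 with all arrays. Mmp14, the membrane-type collagenase that also activates Mmp2, read 9.58, 10.01 and 10.17 in KO and 9.02, 9.75 and 8.34 in WT (0.88 ± 0.43, adjusted p = 0.408), with overlapping groups. A second Mmp14 probe, not tested, had a difference of -0.60 and was above background on 1 WT array alone. Mmp2 itself, the gelatinase A of basement membrane, was above background on 1 KO and 1 WT array.

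The widest spread among the WT arrays of a tested probe was that of Mmp1a, an interstitial collagenase, which read 7.63, 6.70 and 5.57 on KO replicates 1 to 3, against 4.97, 10.06 and 6.78 on WT replicates 1 to 3. WT replicate 1 was not above background, while WT replicate 2 was the brightest of the arrays. Of its other probes, 1 was silent and 1 was above background on 1 array of each genotype. Mmp24, a membrane-type MMP of the nervous system, averaged 7.07 ± 0.37 in KO and 7.65 ± 1.62 in WT. The spread was larger in WT than in KO for 13 of the 23 probes, with a median SD of 0.59 in KO and 0.71 in WT, where all tested probes had 0.47 in KO and 0.59 in WT.

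Inhibitors of the metalloproteases were represented by Timp2, which both inhibits MMPs and takes part in the activation of Mmp2 by Mmp14. It read 8.71, 9.09 and 7.82 on the KO arrays, against 8.36, 8.04 and 6.40 on the WT arrays. The groups overlapped, and the difference was 0.94 ± 0.62 (SE, limma adjusted p = 0.554), or 0.33 without WT replicate 3. Timp3, which binds to the matrix, had 1 probe at 7.03 and 7.08 on KO replicates 1 and 3, 4.86 on KO replicate 2 and 4.63 to 5.22 on the WT arrays, of which none was above background. Its other probes were above background on 1 array each, and none was tested. Timp4 was silent, and Timp1 was above background on 1 WT array.

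The serpins had 7 tested probes for 5 genes, with 0 called. Serpinf1 (pigment epithelium-derived factor, a secreted serpin that does not inhibit proteases) read 9.5, 10.32 and 9.91 in KO, against 7.87, 8.63 and 9.48 in WT. All KO arrays lay above all WT arrays, by 0.02 at the closest, with a difference of 1.25 ± 0.48 (SE, limma adjusted p = 0.296). In scanner signal the groups overlapped, with KO replicate 1 (787.06) below WT replicate 3 (810.37). A second Serpinf1 probe was silent. Serpinh1 (Hsp47, the collagen chaperone of the endoplasmic reticulum, likewise not an inhibitor) had 2 probes measured on all arrays, which disagreed. One averaged 8.42 ± 0.14 in KO and 9.26 ± 0.24 in WT, with no overlap (-0.84 ± 0.26, adjusted p = 0.218), and the other 10.09 ± 0.36 in KO and 10.15 ± 0.40 in WT (-0.06 ± 0.34).

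The intracellular serpins of clade B also varied by probe. Serpinb6a, which inhibits several serine proteases, averaged 9.85 ± 0.80 in KO and 10.00 ± 0.48 in WT on the probe measured on all arrays, and 8.35 ± 1.33 in KO and 6.89 ± 1.13 in WT on another (1.46 ± 0.84, adjusted p = 0.493). Serpinb6b averaged 7.71 ± 0.63 in KO and 7.29 ± 0.08 in WT, and Serpinb9e 8.36 ± 0.79 in KO and 8.24 ± 0.50 in WT, all with overlapping groups. Serpinb6a, Serpinb6b and Serpinb9e belong to groups of related genes, and whether a probe reads 1 gene or several was not examined. Serping1, the C1 inhibitor of complement, was silent in KO, while 2 of its probes were above background on 2 WT arrays each. Those probes were not tested. They read 4.90 to 5.24 and 4.97 to 5.56 in KO, against 5.34 to 7.39 and 5.93 to 7.73 in WT. The normalized groups did not overlap for either probe, as for 14.1% of all probes with no filter. In scanner signal they did overlap. There, WT replicate 3 read 93.13 and 106.67, inside the KO ranges of 85.28 to 106.74 and 88.91 to 121.77. On each probe 1 WT array was not above background.

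**Figure D5:**
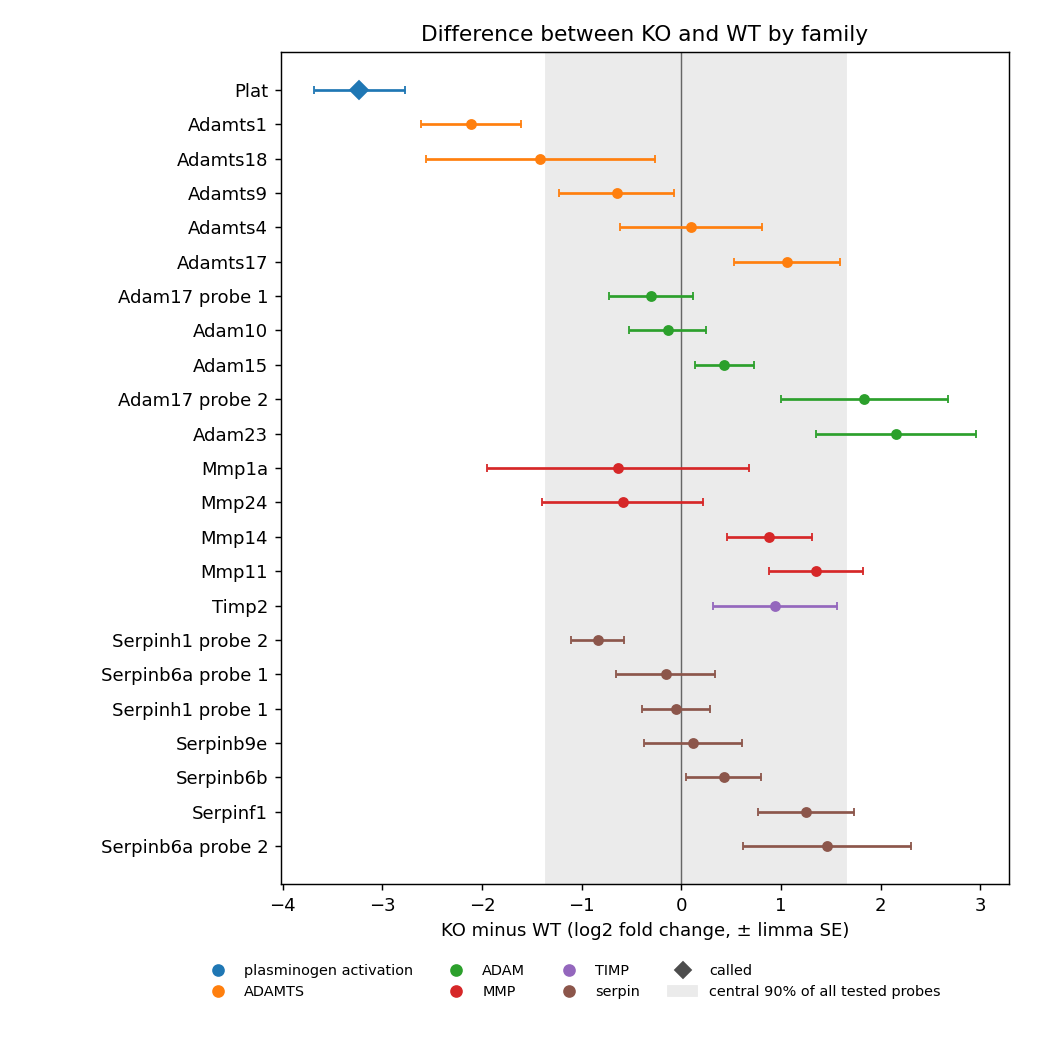
Log2 fold change, KO minus WT, with limma's SE (x axis) for the 23 tested probes (rows), grouped by family and numbered by mean intensity where a gene has 2. The grey band spans the central 90% of all 12697 tested probes (-1.35 to 1.66), and the diamond marks the called probe. Plat, Adamts1 and Adamts18 lie below the band and Adam23 and probe 2 of Adam17 above it.

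In all, 7 of the 23 probes had normalized KO and WT arrays that did not overlap, 3 lower and 4 higher in KO. Over all probes tested, 21.6% did so, 10.2% lower and 11.3% higher. In scanner signal the groups of Mmp11 and Serpinf1 overlapped, and those of the other probes without overlap stayed apart. A log2 change of at least 1 in size was seen in 9 of the 23 probes, 3 negative and 6 positive, and in 22.9% of all tested probes (8.81% negative and 14% positive).

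Of the 28 genes above background on some arrays without being tested, 9 were so in KO only, 11 in WT only and 8 in both. Those in KO only included Serpine3 (5.48, 6.14 and 5.90 on the KO arrays, 4.94 to 5.32 on the WT arrays), Serpinb1a, an inhibitor of neutrophil elastase (6.34, 5.98 and 4.91 on the KO arrays, 4.67 to 5.03 on the WT arrays) and Adam4 (4.68, 6.31 and 6.71 on the KO arrays, 4.68 to 4.86 on the WT arrays). Each had 2 KO arrays above background, and the groups overlapped for Serpinb1a and Adam4. The normalized groups of Serpine3 did not overlap, as for 14.1% of all probes with no filter. In scanner signal they did, with WT replicate 1 (136.62) above KO replicate 1 (118.22). Genes above background in WT only included Plau and Serping1 on 2 arrays each. Mmp9 (gelatinase B), Mmp3 (stromelysin 1) and Mmp13 (collagenase 3) were so on WT replicate 3 alone, at 5.92, 5.96 and 5.98. In scanner signal that array read 106.54 for Mmp9, below the KO range of 107.6 to 110.21. It read 108.14 for Mmp13, against 103.26 to 107.14 in KO, and 107.55 for Mmp3, against 84.8 to 91.59 in KO. In both genotypes, Mmp16, a membrane-type MMP, read 4.88, 7.54 and 7.60 on the KO arrays and 8.84, 7.98 and 5.87 on the WT arrays, and Adamts6 had a probe at 6.24, 5.58 and 7.59 in KO and 5.31, 4.93 and 8.66 in WT. The arrays of each genotype spanned background and clear signal for both genes, and none of these values was tested.

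Marker genes of neighboring tissues were read in the same comparison. The blood list had 5 of 9 genes tested, all positive and 0 called, with a summed level of 17560 to 18190 in KO and 7780 to 10110 in WT (linear normalized intensity), and Epor and Gata1 were silent. The mesenchyme list had 11 of 16 tested, 7 positive and 4 negative, at -2.86 (Snai2, adjusted p = 0.152) to 4.05 (Alx4), and Alx4 was its 1 call. Alx4 read 9.73, 9.02 and 10.02 on the KO arrays and 6.70, 5.21 and 4.70 on the WT arrays, none above background, a signal at least 10.7-fold higher in KO (limma adjusted p = 0.0489). The list had a summed level of 3448 to 3993 in KO and 3313 to 5330 in WT, and Dcn, Pdgfrb, Sox10 and Twist1 were silent. The optic vesicle and neuroepithelium list had 5 of 11 genes tested, 3 positive and 2 negative, at -1.37 to 1.63, with 0 called. Its summed level was 2152 to 3131 in KO and 1495 to 5371 in WT, and Fabp7, Six6, Sox1 and Tbx5 were silent. The endothelial list had Cldn5 alone tested of 12 (8.85 in KO and 5.18 in WT, where no array was above background, at least 6.43-fold higher in KO, adjusted p = 0.0711), with a summed level of 1285 to 1512 in KO and 721.8 to 975.2 in WT, and 7 of its genes, among them Pecam1, Cdh5 and Kdr, were silent. The part of these cells in the higher readings of Serpinf1, Mmp11, Mmp14 and Timp2, or of the lower placode and surface ectoderm sums in the lower reading of Plat, was not tested.

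Proteases and inhibitors outside the families above were read as well. Of 30 other matrix and pericellular proteases with a probe, 9 genes were tested and 0 of 11 probes called, with log2 fold changes of the brightest probe of each gene at -0.66 to 0.74. Bmp1, the procollagen C-proteinase, averaged 10.08 ± 0.99 in KO and 9.67 ± 1.11 in WT, and Furin, a proprotein convertase that activates several of the metalloproteases, 9.19 ± 0.75 in KO and 9.25 ± 0.18 in WT. Of 24 other inhibitors and regulators, 10 genes were tested and 0 of 12 probes called, with a range of -1.05 (Lrp1) to 4.22 (Anxa2). Reck, a membrane-anchored MMP inhibitor, averaged 7.03 ± 0.99 in KO and 6.97 ± 0.63 in WT. Spint1 and Spint2, Kunitz-type inhibitors of the epithelial protease matriptase, averaged 11.72 ± 0.38 and 11.68 ± 0.14 in KO, against 10.60 ± 0.86 and 11.63 ± 0.26 in WT. St14, which encodes matriptase, averaged 9.61 ± 0.79 in KO and 9.01 ± 0.31 in WT.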

How the data were processed

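For each array, the authors deposited the scanner's bead intensity, not normalized, and a detection p-value for each probe (Illumina MouseWG-6 v2, GenomeStudio). The deposited processed intensity, cubic spline normalized by the authors, served as an alternative. A further 12 per-sample columns were not used. Analysis used R 4.3.3 and limma 3.58.1: normexp background correction inferred from detection p-values (offset 16), log2 transformation and quantile normalization. Probes with a detection p under 0.01 on all 3 arrays of a genotype were kept (12697). Genotype means were compared with lmFit and eBayes, with Benjamini-Hochberg adjustment over the kept probes, and the code was tested on simulated data. GenomeStudio's own test was not run. A symbol was given for 34885 probes, and all 240 members matched a current gene table. The number of arrays limits the precision. All tested members are named. The members and lists were chosen with earlier results of these data known. Alternatives changed 1 choice at a time, and arrays were left out with the same probes tested.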

Additional observations from a re-analysis of the deposited data

How the results depend on the processing

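The 1 call among the tested protease and inhibitor probes (Plat, lower) was kept with an intensity trend and became 0 in the other 14 settings: no background correction, median scaling, the deposited processed values, no filter, a detection p under 0.05, array weights, an offset of 50, the replicate block, and with any array left out (0 to 0). At an unadjusted p under 0.05 those settings held 3 to 7 of 23 member probes by limma (11.8% to 16% of all probes), 10 of 43 with a detection p under 0.05 (13.5% of all) and 13 of 240, or 5.42%, with no filter (7.26% of all). Calls higher in KO were 0 throughout. Of all probes, 107 were called as reported. The count was 36 without background correction, 66 with no filter, 45 with a detection p under 0.05 and 53 with an offset of 50. It was 83 with array weights, 92 with median scaling and 0 with the replicate block. More probes were called with the deposited processed values (133) and with an intensity trend (151). Leaving out any array gave 0, or 1 without WT replicate 3. Probes without overlap numbered 31 of 240 with no filter (14.1% of all probes) and 13 of 43 at a detection p under 0.05 (20.6%), 7 to 10 of 23 with an array left out (29.6% to 33.9%) and 5 with median scaling (17.6%). The median was -0.051 with no filter and -0.14 (without KO replicate 3) to 0.30 (without WT replicate 2) with an array left out.

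The sign held in all 15 alternatives for 15 of the 23 probes. Leaving out an array turned the others, with values of -0.45 to 0.19 for Adam10, -0.68 to 0.024 for Adam17 probe 1, -0.40 to 0.88 for Adamts4, -1.81 to 0.76 for Mmp1a, -1.42 to 0.14 for Mmp24, -0.52 to 0.28 for Serpinb6a probe 1, -0.22 to 0.56 for Serpinb9e and -0.28 to 0.15 for Serpinh1 probe 1. The cause was not tested.

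The titles number the arrays 1 to 3 in each genotype, but same-numbered arrays did not deviate together (correlations of -0.014, 0.0013 and -0.026 over 12697 probes). These correlations span all tested probes, so they cannot exclude a pairing that affects only some of them. With the replicate block, Plat read -3.23 with an adjusted p of 0.207, the count of calls was 0 and the median stayed at 0.10.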
